A study of Mus musculus with 13 samples.

Results

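The 10 genes described here encode the main proteins of mouse milk. They were taken by symbol from a gene table of RNA sequencing: the caseins Csn1s1, Csn1s2a, Csn1s2b, Csn2 and Csn3, the whey genes Wap, Lalba and Glycam1, and the milk fat globule genes Btn1a1 and Mfge8. All 10 were found among the 15213 listed genes. Its 13 libraries came from 10 mammary tumors, taken from 6 females with the transgenes MMTV-tTA and TetO-Tsg101, and from the mammary glands of 3 wild-type FVB females, which carried neither transgene. MMTV-tTA is a transgene in which the mouse mammary tumor virus promoter drives the tetracycline-controlled transactivator in luminal epithelial cells of the mammary gland, and TetO-Tsg101 is its responder, which carries the coding sequence of Tsg101 with a luciferase reporter on an FVB background. The labels write this genotype as MtTA Teto-TSG101wt. By the study's own description, tumors for molecular work came from 1 founder line of the responder, so that effects of its insertion site were not separated. Doxycycline switches the responder off, and no treatment of the sequenced animals is named in the labels. RNA came from bulk, flash-frozen tissue. Tumors 2 and 3 came from 1 female, tumors 5 and 6 from another and tumors 8, 9 and 10 from a further female, while tumors 1, 4 and 7 came from females of their own, so the p-values take related tumors as separate samples. The labels give neither the age nor the reproductive stage of any animal, so that a difference in stage and the difference in genotype cannot be told apart.

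Milk proteins are made by the secretory luminal cells of the alveoli. Their genes are switched on in pregnancy and lactation by prolactin, which acts through its receptor, the kinase JAK2 and the transcription factor STAT5, together with glucocorticoids and the epithelial factor ELF5. Caseins carry calcium and phosphate into milk as micelles, whey proteins stay in solution, and butyrophilin and MFG-E8 coat the milk fat globule. The caseins lie side by side in a single gene cluster, which in GRCm38.p6 (mm10) runs from Csn1s1 (chr5:87666208-87682578) through Csn2 (chr5:87692619-87699429), Csn1s2a (chr5:87774450-87788798) and Csn1s2b (chr5:87808121-87824421) to Csn3 (chr5:87925579-87932550). Wap is at chr11:6635483-6638654, Lalba at chr15:98480400-98482934, Glycam1 at chr15:103562759-103565081, Btn1a1 at chr13:23456984-23465914 and Mfge8 at chr7:79133768-79149060.

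The promoter letters of 5 genes are given first, because STAT5 is known to bind casein promoters directly and because these genes include those with the largest differences in the data. They are the 250 bases before the transcription start in the RefSeq annotation of GRCm38.p6 (mm10), 5′ to 3′ on the strand of the gene, in lower case. The start used for a window can lie inside the gene span given above, as it does for Csn2, Wap and Lalba, where the span reaches farther than that start. Capitals mark matches to TTCNNNGAA, the STAT5 motif, which was searched on both strands. The windows are chr5:87665958-87666207 (plus strand) for Csn1s1, chr5:87699426-87699675 (minus strand) for Csn2, chr15:103565082-103565331 (minus strand) for Glycam1, chr5:87774200-87774449 (plus strand) for Csn1s2a and chr11:6638650-6638899 (minus strand) for Wap.
Csn1s1: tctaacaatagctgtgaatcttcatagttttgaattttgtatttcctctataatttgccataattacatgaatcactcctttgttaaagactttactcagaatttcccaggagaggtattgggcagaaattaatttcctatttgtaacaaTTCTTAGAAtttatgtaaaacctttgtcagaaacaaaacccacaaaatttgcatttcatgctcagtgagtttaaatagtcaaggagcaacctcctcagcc
Csn2: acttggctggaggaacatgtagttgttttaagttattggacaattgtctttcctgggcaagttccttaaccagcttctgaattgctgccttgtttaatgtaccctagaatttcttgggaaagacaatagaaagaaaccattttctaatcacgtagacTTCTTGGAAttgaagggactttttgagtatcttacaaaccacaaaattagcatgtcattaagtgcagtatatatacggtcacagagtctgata
Glycam1: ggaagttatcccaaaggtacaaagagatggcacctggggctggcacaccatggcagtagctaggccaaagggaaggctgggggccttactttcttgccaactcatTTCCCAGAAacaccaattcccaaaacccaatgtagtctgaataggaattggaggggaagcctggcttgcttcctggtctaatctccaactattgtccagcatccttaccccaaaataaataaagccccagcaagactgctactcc
Csn1s2a: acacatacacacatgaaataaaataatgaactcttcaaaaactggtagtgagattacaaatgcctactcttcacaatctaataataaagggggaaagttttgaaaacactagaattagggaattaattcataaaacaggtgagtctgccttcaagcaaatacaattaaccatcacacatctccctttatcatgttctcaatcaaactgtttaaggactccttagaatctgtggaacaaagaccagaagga
Wap: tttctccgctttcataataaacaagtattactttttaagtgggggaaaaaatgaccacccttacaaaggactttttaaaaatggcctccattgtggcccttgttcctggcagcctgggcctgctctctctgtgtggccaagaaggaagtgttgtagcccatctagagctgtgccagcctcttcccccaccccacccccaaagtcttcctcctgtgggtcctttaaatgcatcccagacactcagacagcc

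The STAT5 motif was found in 3 of the 7 milk protein genes that had such a window, once in each. Counted from the start, it lay at -100 to -92 in Csn1s1, at -93 to -85 in Csn2 and at -145 to -137 in Glycam1. Among all 32851 windows of this length, 7.02% held the motif. AGAACA, the half-site of the glucocorticoid receptor, was found in Csn1s2a, at -59 to -54, and in 16.1% of all windows. TATAAA, the TATA box, was in none of the 7 windows (12.4% of all), and neither was the longer NF1 palindrome (0.0365% of all). These 4 motifs do not overlap one another in the 7 windows. The windows of Lalba and Mfge8 held none of the 4 motifs, and those of Csn1s2b, Csn3 and Btn1a1 were not used here. A match is only a run of letters, and a window without a match says nothing about binding farther away.

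Counted reads per library ran from 6176269 to 16835397 for tumors and from 11672487 to 23889042 for glands. Values are in normalized cpm, which are counts relative to the library size, scaled by the authors with a factor for each library, and 3 reads stood for at most 0.683 normalized cpm. No milk protein gene was at 0 in any library, and the lowest count was 3 reads, for Csn1s2b in tumor 7. Reads of the transgene and of the endogenous gene were not told apart, and Tsg101 was at 49.9 to 101 normalized cpm in the tumors and at 45.6 to 61.0 in the glands. It was above all glands in 6 of 10 tumors, and limma gave an adjusted p of 0.296. The summed level of 12 epithelial markers was 2150 to 3245 in the tumors and 1344 to 2975 in the glands, and 0 of the 12 were significantly lower in the tumors while 3 were higher. Calls of marker lists came from the fit without the filter on low levels, where 1538 of 15213 genes were lower and 1603 higher. The 45S ribosomal RNA precursor Rn45s took 0.456 to 27.4% of the reads of the tumors, with the highest share in tumor 9, and 0.296 to 4.35% in the glands, with the highest share in gland 3.

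All 10 milk protein genes were significantly lower in the tumors than in the glands, and 0 were higher. With tumors of the same mouse treated as correlated, 10 were called lower on log2 values and 6 under voom weights, an alternative chosen after seeing the data. The test was limma on log2(normalized cpm + 1) over all 13 libraries, and genes past a Benjamini-Hochberg adjusted p of 0.05 with a change of more than 2-fold were called. Of the 11795 genes tested, 6.99% were called lower and 10.2% were called higher. The log2 fold changes of the 10 genes ran from -8.35 for Glycam1 to -2.09 for Mfge8, with a median of -3.44, where the median of all genes tested was 0.01. For 9 of the 10 genes every tumor was below every gland, a separation that 8.53% of all genes tested showed. Csn1s2b was the exception, with 7 of 10 tumors below all glands. In bulk tissue, fewer secretory cells and less RNA per cell cannot be told apart.

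**Figure D1:**
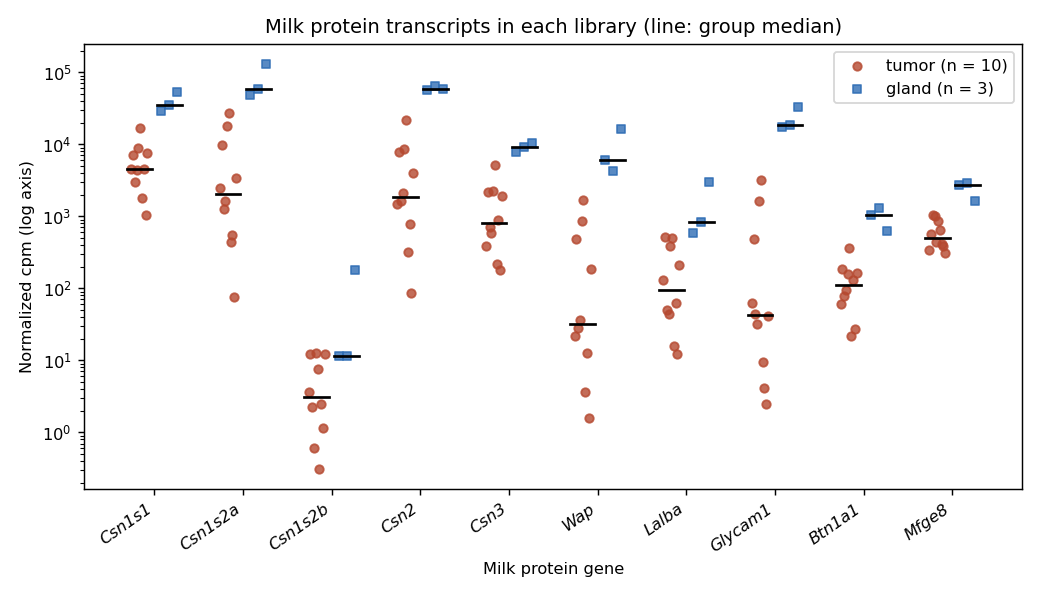
Normalized cpm (log axis) of each milk protein gene in 10 tumors (red circles) and 3 glands (blue squares), with a black line at the group median. The groups are apart for 9 genes, whereas for Csn1s2b the tumors reach 12.5, above 2 of the glands at 11.4 and 11.6.

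Among the caseins, Csn2 encodes beta-casein. Csn2 was at 56894, 63624 and 59019 normalized cpm in glands 1, 2 and 3, and at 85.1 in the lowest tumor, 1878 at the median and 21978 in the highest tumor. The glands lay close together, whereas the tumors spread widely below them, with tumor 9 lowest and tumor 6 highest. The means were 59846 ± 3440 (SD, n = 3) in the glands and 4903 ± 6721 (SD, n = 10) in the tumors, and the log2 fold change was -4.96 ± 1.27 (SE, limma adjusted p = 0.00877).

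Csn1s1 encodes alpha-s1-casein. Csn1s1 was at 28887, 35262 and 54011 in the glands, and at 1027, 4515 and 16688 in the lowest, median and highest tumor. Again tumor 9 was lowest and tumor 6 highest, and the groups did not overlap. Its log2 fold change was -3.05 ± 0.69 (SE, limma adjusted p = 0.00409), beside -4.96 for Csn2, its neighbor on chromosome 5, and the difference between the genes was not tested.

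The paralogs Csn1s2a and Csn1s2b encode the alpha-s2-like caseins, and reads that match both equally well could not be reassigned. Csn1s2a was at 47640, 58454 and 129485 in the glands, and at 75.1, 2041 and 27428 in the lowest, median and highest tumor. No tumor reached the glands, and gland 3 was more than 2-fold above the other glands. The log2 fold change of Csn1s2a was -5.10 ± 1.40 (SE, limma adjusted p = 0.0133). Csn1s2b was the least abundant casein, at 11.4, 11.6 and 181 in the glands and at 0.315, 3.07 and 12.5 in the lowest, median and highest tumor. Here the groups overlapped, because tumors 2, 5 and 10 were above glands 1 and 2. The call of Csn1s2b, at -2.71 ± 0.88 (SE, limma adjusted p = 0.0322), rested on gland 3, since it was -1.42 without that library (limma adjusted p = 0.195). Csn1s2b also passed the filter on low levels only with the glands counted, because most tumors were at 5 or less.

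Csn3 encodes kappa-casein, which coats the micelle and keeps it in suspension. Csn3 was at 7699, 9093 and 10509 in the glands, and at 181, 797 and 5130 in the lowest, median and highest tumor. Every tumor, tumor 6 included, was below the lowest gland. Csn3 fell by 3.36 ± 0.84 on the log2 scale (SE, limma adjusted p = 0.00780).

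The 2 largest falls of the 10 genes were those of the whey genes Glycam1 and Wap. Glycam1 encodes a mucin-like glycoprotein of milk, and is also made by the high endothelial venules of lymph nodes. It was at 17288, 18562 and 32875 normalized cpm in the glands, and at 2.50, 42.7 and 3201 in the lowest, median and highest tumor. Even the highest tumor was 5.40-fold below the lowest gland, the widest gap between the groups of any of the 10 genes. The log2 fold change of Glycam1 was -8.35 ± 1.76 (SE, limma adjusted p = 0.00242), and without tumor 6 it was -8.97. In this fit of log2 values it was the largest fall of all genes tested, a rank not determined for other measures. The summed level of 4 listed lymph node stroma markers was 142, 18.3 and 97.0 in glands 1, 2 and 3, against 0.944 to 10.5 in the tumors. In the fit without the filter all 4 were called lower in the tumors. Among the glands this sum was highest in gland 1 and lowest in gland 2, and Glycam1 was highest in gland 3 and lowest in gland 1. The 11 lymphocyte markers summed to 679, 32.6 and 626 in the glands and to 16.0 to 174 in the tumors, with 8 of 11 lower. The part of lymph node tissue in the level of Glycam1 was not tested.

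Wap encodes the whey acidic protein, the main whey protein of rodent milk. Wap was at 6043, 4301 and 16263 in the glands, and at 1.59, 32.2 and 1706 in the lowest, median and highest tumor. Tumors 2, 5 and 6 were at 482, 875 and 1706, whereas tumors 7 and 9 were at 3.67 and 1.59. The log2 fold change of Wap was -6.98 ± 1.69 (SE, limma adjusted p = 0.00633), second to that of Glycam1 among all genes tested in this fit of log2 values. Lalba encodes alpha-lactalbumin, the regulatory subunit of lactose synthase. It was at 584, 828 and 2959 in the glands, and at 12.1, 95.7 and 523 in the lowest, median and highest tumor. The groups did not overlap but came close, since tumor 2 was 1.12-fold below gland 1. Lalba was at a log2 fold change of -3.51 ± 1.06 (SE, limma adjusted p = 0.0232), which was -3.73 without gland 2 (limma adjusted p = 0.0557) and -2.82 without gland 3 (limma adjusted p = 0.0907), so that the call was lost without either library.

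Both milk fat globule genes were lower in the tumors as well. Btn1a1 encodes butyrophilin, a membrane protein needed for the secretion of milk lipid droplets. Btn1a1 was at 1039, 1309 and 627 in the glands, and at 21.6, 113 and 364 in the lowest, median and highest tumor. All tumors were below gland 3, the lowest gland, and the log2 fold change was -3.30 ± 0.67 (SE, limma adjusted p = 0.00184). Mfge8 encodes MFG-E8, a protein of the globule membrane that also bridges dying cells to phagocytes and is made by other cell types. Its levels were 2723, 2877 and 1626 in the glands, and 314, 504 and 1048 in the lowest, median and highest tumor. Mfge8 showed the smallest fall of the 10 genes, -2.09 ± 0.39 (SE, limma adjusted p = 9.18e-04). The fall of Csn1s2b was smaller than that of Mfge8 without gland 3 (-1.42 against -2.35) and with a pseudocount of 5 (-1.97 against -2.08). Btn1a1 and Mfge8 were both lowest in gland 3 among the glands, the library with the highest levels of Csn1s1, Csn1s2a, Csn1s2b, Csn3, Wap, Lalba and Glycam1. Gland 3 also had the lowest sum of epithelial markers (1344) and the highest sum of 9 adipocyte markers (11689, against 4398 and 4615 in the other glands and 66.2 to 477 in the tumors).

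The fold of the most variable genes depended on how the tumors were averaged. The fit compares means of log2 values and gave a 326-fold fall of Glycam1, 126-fold of Wap, 34.3-fold of Csn1s2a and 31.1-fold of Csn2. The ratio of the mean levels, which weights the highest tumors most, was 41.6-fold for Glycam1, 26.5-fold for Wap, 12.1-fold for Csn1s2a and 12.2-fold for Csn2. Count models, which also compare mean levels, gave log2 fold changes nearer to these ratios, with edgeR at -5.43 for Glycam1, -4.78 for Wap, -3.64 for Csn1s2a, -3.65 for Csn2 and -2.69 for Csn3, while that of Csn1s2b grew to -3.66. For Csn1s1 (8.30-fold and 6.60-fold) and Btn1a1 (9.82-fold and 7.73-fold) both measures were closer to each other. The 4 genes not called under voom weights were Csn1s2a, Wap, Lalba and Glycam1 (limma adjusted p between 0.0503 and 0.119).

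Levels were also compared between the genes per length of the main transcript. In the glands the mean level per kilobase was highest for Csn1s2a (85355 normalized cpm per kb), followed by Csn2 (45031), Glycam1 (36479), Csn1s1 (27914) and Wap (16097). Csn3 (5702), Lalba (1889), Mfge8 (1133), Btn1a1 (290) and Csn1s2b (83.7) followed. Some of these means rested on gland 3, and without it Wap was at 9387, Csn1s2b at 14.2 and Lalba at 915, below Mfge8 at 1318. The mean over the tumors was also highest for Csn1s2a (7059), then for Csn1s1 (4229), Csn2 (3689), Csn3 (904), Glycam1 (877) and Wap (608), with Mfge8 (283), Lalba (250.5), Btn1a1 (37.5) and Csn1s2b (6.80) below them. These tumor means rest on a few high tumors, and the order by the median tumor was another. By the median, Csn1s1 (3200) came before Csn1s2a (2219), Csn2 (1413) and Csn3 (499.5), and Glycam1 (67.9) and Wap (58.5) came after Mfge8 (237) and Lalba (124), ahead of Btn1a1 (33.0) and Csn1s2b (3.78). These orders are descriptions with no test, and the spread between tumors exceeded many of the steps.

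Reads of the 10 genes made up 16.5%, 17.6% and 21.6% of all counted reads in glands 1, 2 and 3. In tumors 1 to 10 they made up 1.05%, 3.33%, 0.966%, 1.26%, 4.34%, 7.42%, 0.377%, 0.886%, 0.128% and 1.95%. The highest tumor, tumor 6, was thus below the lowest gland, and every tumor still held reads of every milk protein gene. The exact 95% binomial intervals were at most 0.0472 percentage points wide and cover counting error only. Without the reads of Rn45s, the range was 0.176 to 8.19% in the tumors and 16.6 to 22.6% in the glands. On the normalized scale the 10 genes summed to 1794 to 77848 in the tumors, with a median of 9759, and to 168807 to 307554 in the glands.

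**Figure D2:**
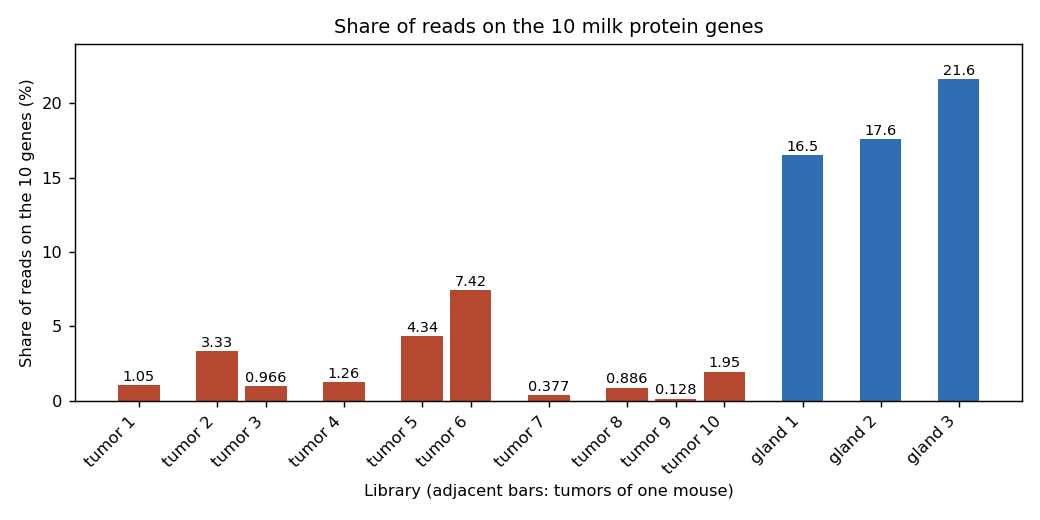
Percent of all counted reads that fell on the 10 milk protein genes, 1 bar per library, red for tumors and blue for glands, with adjacent bars for tumors of 1 mouse. The tumors range from 0.128 to 7.42% and the glands from 16.5 to 21.6%.

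The remaining milk transcripts of the tumors were made up differently from those of the glands. Csn1s1 took 21.4 to 61.1% of the summed level of the 10 genes in the tumors but 17.1 to 18.1% in the glands, with no overlap. Glycam1 took 9.55 to 10.7% in the glands and 0.0561 to 4.11% in the tumors, and Wap took 2.21 to 5.29% and 0.0888 to 2.19%, again with no overlap. Csn2 and Csn1s2a were between these patterns, with shares of 4.74 to 28.2% and 4.19 to 43.7% in the tumors and 19.2 to 33.7% and 28.2 to 42.1% in the glands. Mfge8 took 1.07 to 21.3% in the tumors and 0.529 to 1.61% in the glands. The ratio of Csn1s1 to Csn2, 2 neighbors of the same gene cluster, was 0.508, 0.554 and 0.915 in the glands. Among the tumors it was lowest in tumor 6, at 0.759, and highest in tumor 9, at 12.1. Tumors 2, 5 and 6, with the largest sums of milk transcripts, had ratios of 0.912, 1.02 and 0.759, the lowest of the tumors, and tumor 9, with the smallest sum, had the highest ratio. Shares of a sum are tied to each other, and these values are descriptions with no test.

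**Figure D3:**
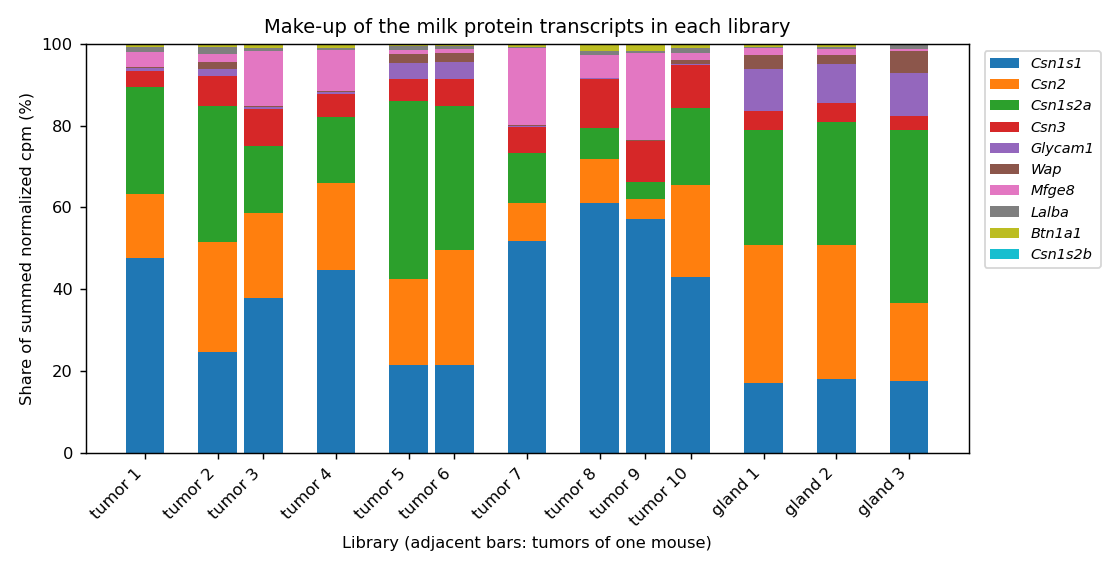
Share of each gene in the summed normalized cpm of the 10 milk protein genes (%), stacked to 100% for each library, with adjacent bars for tumors of 1 mouse. Csn1s1 takes 21.4 to 61.1% of the bars of the tumors and 17.1 to 18.1% of those of the glands, whereas Glycam1 is visible mainly in the glands and in tumors 5 and 6.

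Most of the milk protein genes varied more between tumors than nearly all other genes, with 9 of the 10 in the top 120 of 11795. The SD of log2(normalized cpm + 1) over the 10 tumors was 3.36 for Glycam1, 3.20 for Wap and 2.61 for Csn1s2a, which ranked 1, 2 and 3 among the genes tested. Csn2 (2.38) ranked 6 and Lalba (1.95) ranked 11. Csn3 (1.57), Csn1s2b (1.30), Btn1a1 (1.24) and Csn1s1 (1.16) ranked 31, 74, 90 and 120, and Mfge8 (0.64) ranked 1363. Csn1s2b, with a median of 3.07 normalized cpm in the tumors, passed the filter only with the glands counted, and its rank rests on low counts. The median SD was 1.76 for the 10 genes and 0.37 for all genes tested. From the lowest to the highest tumor, Glycam1 differed 1278-fold, Wap 1071-fold, Csn1s2a 365-fold and Csn2 258-fold, against 16.3-fold for Csn1s1 and 3.34-fold for Mfge8. Without tumor 9, the lowest for Glycam1, Wap, Csn1s2a, Csn2 and Csn1s1, these were 777-fold, 465-fold, 63.3-fold, 69.2-fold and 9.23-fold.

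**Figure D4:**
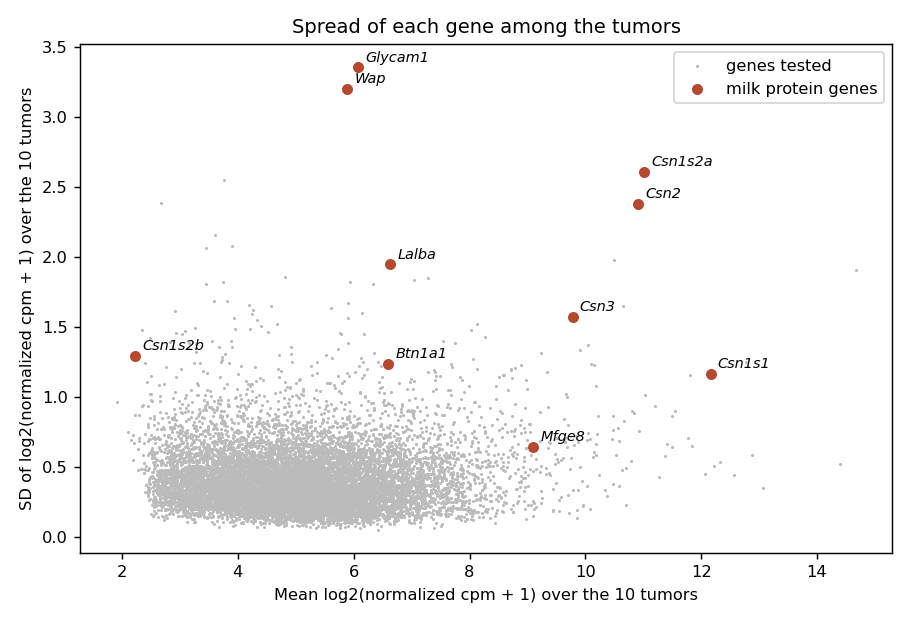
SD of log2(normalized cpm + 1) over the 10 tumors against the mean on the same scale, with 1 grey point per gene tested and the milk protein genes in red. Glycam1 (3.36) and Wap (3.20) lie above all other genes, and Mfge8 (0.64) lies near the main cloud.

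The highest and lowest tumors were largely shared between the genes. Tumor 6 was highest for 7 of the 10 genes, and tumor 5 was highest for Csn1s2b, tumor 2 for Lalba and tumor 3 for Mfge8. Tumor 9 was lowest for 7 of the 10 genes, tumor 7 for Csn1s2b and Btn1a1, and tumor 10 for Mfge8. Tumor 9 was also the library with the largest share of Rn45s and the lowest sum of epithelial markers among the tumors (2150), and the part of these in its low levels was not tested. Over the 10 tumors, the log2 levels of Wap and Lalba followed the mean log2 level of the 5 caseins closely, with Pearson's r of 0.985 and 0.971, and those of Btn1a1 and Glycam1 with 0.920 and 0.912, whereas Mfge8 had r = 0.0917. Without tumors 6 and 9, the values were 0.985, 0.966, 0.847, 0.851 and -0.368. The points share libraries and mice, and these are descriptions with no p. Tumors of the same mouse were not uniformly alike. Tumors 5 and 6 of 1 mouse held the largest shares of milk reads (4.34% and 7.42%), whereas tumors 8, 9 and 10 of another mouse held 0.886%, 0.128% and 1.95%. In these 3 tumors Csn2 was at 794, 85.1 and 4035 normalized cpm and Wap at 12.5, 1.59 and 185. Tumors 2 and 3 of a further mouse differed likewise, with Wap at 482 and 28.5 and Csn2 at 7857 and 1635.

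Of 23 other genes of milk secretion, 22 were tested, and 16 were lower in the tumors, 1 was higher and 5 were not called, with a median log2 fold change of -2.21. Of all genes tested, 6.99% were called lower and 10.2% higher. By role, 8 of 9 milk lipid genes, 1 of 3 lactose genes, 5 of 8 genes of other whey and milk surface proteins and 2 of 2 tested genes of mineral and drug transport were lower. The largest falls were those of Lao1, Fasn and Cidea. Lao1, an L-amino acid oxidase secreted into milk, was at 760, 851 and 793 normalized cpm in the glands and at 42.0 ± 58.0 (SD, n = 10) in the tumors, and changed by -5.88 ± 1.33 on the log2 scale (SE, limma adjusted p = 0.00399), but by -4.29 with edgeR on recovered reads, where its fall was smaller than that of Fasn (-4.47). Fasn, the fatty acid synthase, was at 4637, 3459 and 1880 in the glands and at 153 ± 123 in the tumors, with a change of -4.69 ± 0.59 (SE, limma adjusted p = 3.52e-05). Cidea, a protein of lipid droplets, changed by -4.02 ± 0.48 (SE, limma adjusted p = 2.55e-05). Fasn and Cidea are also used by fat cells, and all 9 adipocyte markers were lower in the tumors. The share of the fat cells in these falls was not tested. Atp2b2, a calcium pump of the secretory cells, was left out by the filter, and without it was lower in the tumors as well, with a log2 fold change of -1.70 (limma adjusted p = 3.19e-04).

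The only called rise among these genes was that of Ltf, which encodes lactoferrin, an iron-binding protein of milk and other secretions. Ltf was at 354, 408 and 259 normalized cpm in the glands and at 1270 ± 553 (SD, n = 10) in the tumors. It was above all glands in 10 of 10 tumors, with a log2 fold change of 1.79 ± 0.39 (SE, limma adjusted p = 0.00307), opposite in direction to each of the 10 milk protein genes.

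The regulators of lactation were partly lower in the tumors. Of 19 genes of prolactin signaling, steroid and paracrine signaling and alveolar transcription factors, 18 were in the table and 15 were tested, and 6 were lower, 0 were higher and 9 were not called, with a median log2 fold change of -0.70. The share called lower over all genes tested was 6.99%. Among the 15 tested regulators, the largest falls were those of Elf5, Cish and Wnt4. Elf5, the alveolar transcription factor, was at 924, 1255 and 663 normalized cpm in the glands and at 345 ± 234 (SD, n = 10) in the tumors, with tumor 6 at 898. It changed by -1.68 ± 0.52 (SE, limma adjusted p = 0.0251), which was -1.67 without gland 1 and -1.45 without gland 2, with the call lost in both cases (limma adjusted p = 0.0861 and 0.123). The call of Elf5 was also lost under voom with mouse as a correlated block (limma adjusted p = 0.0643). Cish, a target of STAT5 that dampens cytokine signaling, changed by -1.63 ± 0.32 (SE, limma adjusted p = 0.00159). Wnt4, a paracrine signal of the luminal cells, changed by -1.49 ± 0.43 (SE, limma adjusted p = 0.0183), and its call was lost without gland 1 or gland 2 (limma adjusted p = 0.0827 and 0.127) and with the mean of each mouse (-1.34, limma adjusted p = 0.0686). Tnfsf11, which encodes RANKL, a paracrine signal of alveolar development, was left out by the filter because of its low level in the tumors, and is named after its values were seen. Tnfsf11 was at 13.8, 25.6 and 24.6 normalized cpm in the glands and at 0.566 to 6.60 in the tumors, with 10 of 10 tumors below all glands. Without the filter its log2 fold change was -3.05 (limma adjusted p = 4.06e-05), a larger fall than that of any tested regulator. The count of 6 was 3 without gland 1, 3 without gland 2, 8 without gland 3, 4 under voom with mouse as a correlated block and 9 when scaled to epithelial markers. Stat5a, 1 of the 6 and named after its values were seen, changed by -1.03 ± 0.36 (SE, limma adjusted p = 0.0468). Its call was lost under 15 of 25 alternatives.

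**Figure D5:**
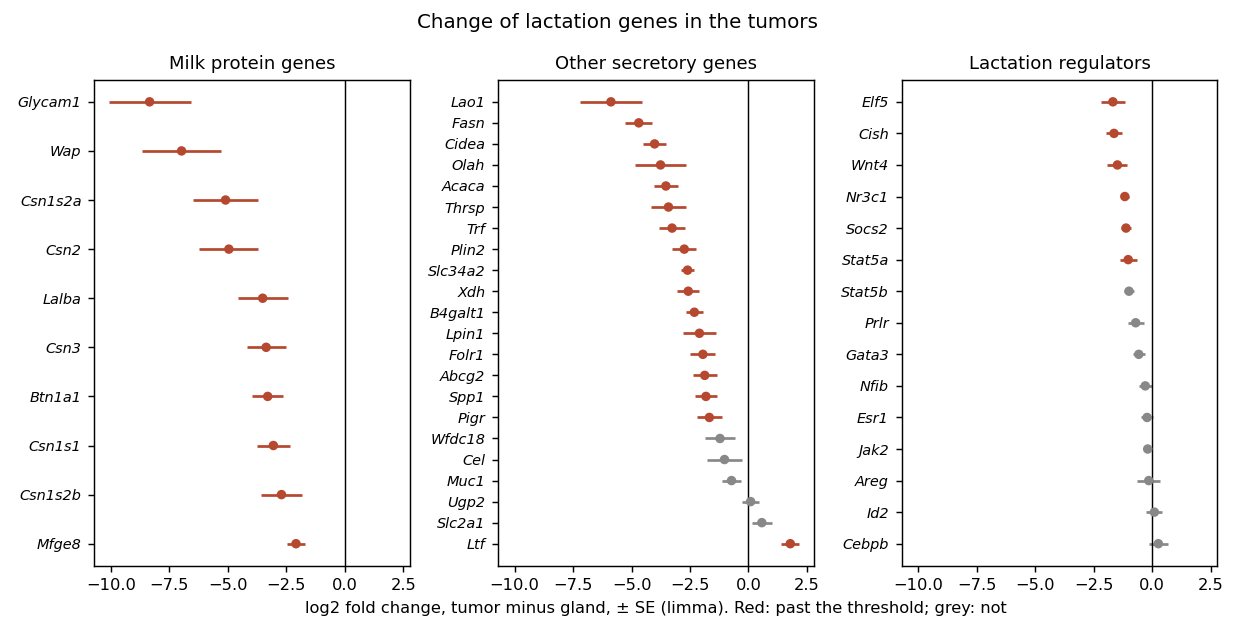
Log2 fold change (tumor minus gland, limma) with bars of ± 1 SE for the 10 milk protein genes (left), the 22 tested genes of milk secretion (middle) and the 15 tested regulators (right), in red where called. The milk protein genes run from -8.35 to -2.09, the secretory genes from -5.88 to 1.79, and the tested regulators reach down to -1.68. Tnfsf11 (-3.05 without the filter) is not drawn.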

How the data were processed

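Total RNA of 10 tumors and 3 glands was sequenced. The authors aligned paired-end reads to mm10 with Rsubread, used featureCounts for the counts per gene and edgeR for their normalization, and the strand setting is not given in the sources used here. The deposited values are a signal, read counts divided by the effective library size (normalized cpm), and in each library 100% of them were whole multiples of 1 read (tolerance 0.01), from which counts were recovered. Genes at 5 or less in the majority of libraries were left out (3418), and 11795 were tested with limma 3.58.1 (R 4.3.3, trend, group only) on log2(normalized cpm + 1). The design had set this test for values already normalized. Alternatives were pseudocounts of 0.5 and 5, no filter, edgeR 4.0.16 and DESeq2 1.42.0 on recovered counts (DESeq2 without outlier replacement, Cook's limit or independent filtering), scaling without the 10 genes or to epithelial markers, mouse as a block or averaged, a replicate block and each library left out. Steps were tested on simulated data with independent libraries and the same dispersion for every gene, so that related tumors and unequal spread were not covered.

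The 10 genes, the gene lists and the marker lists were chosen with earlier results of these data known. Named were all 10 genes, in each list the 3 genes with the largest fall and the 3 with the largest rise among those called, the 8 genes, other than these 10, most like the caseins across tumors, and the listed genes of the casein locus with 3 on each side. Levels are given as mean ± SD, or the lowest, median and highest value. Coordinates and promoters are those of RefSeq for GRCm38.p6 (15106 of 15213 genes matched by ID), and 7 of the 10 genes had a promoter window. Lengths are those of the principal transcript in GENCODE M21. The labels name 2 sequencing sites without saying which library went where, so that no batch could be assigned. The smallest chi-square per gene between 2 libraries was 25.0, so that none was counted as a duplicate.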

Additional observations from a re-analysis of the deposited data

Results flagged for a closer look

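Tumor 6 stood apart from the other 9 tumors on the linear scale for 6 of the 10 milk protein genes and for their sum. It was at 16688 normalized cpm for Csn1s1 against 8878 in the next tumor, at 21978 for Csn2 against 8708, and at 5130 for Csn3 against 2257. For Wap it was at 1706 against 875, for Glycam1 at 3201 against 1630, and for Btn1a1 at 364 against 186. The sum of the 10 genes was 77848 against 41467 in tumor 5, which came from the same mouse. In each case the gap to the next tumor was more than 0.466 of the whole range, the 95% limit of Dixon's test for 10 samples. None of these values stood apart on the log2 scale. Of 21 groups examined 7 were picked out, and the genes share their libraries. The rate of 1 in 20 by chance holds for normally distributed values, which these linear levels were not shown to be, so no excess over chance is read from the 7.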

How the results depend on the processing

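Of 250 results, the 10 milk protein genes under 25 alternatives each, 233 kept their call, 17 fell short of the threshold and 0 turned direction. Besides the losses given above, Csn1s2b missed it with the mean of each mouse (limma adjusted p = 0.0534) and without tumor 9 and gland 3 (-1.29, limma adjusted p = 0.235), as did Lalba without both (-2.49, limma adjusted p = 0.0925), which was chosen after seeing the data. Under voom with mouse as a correlated block, 6 of the 10 genes were called lower. The causes were not tested. Over all genes, 2029 were called, but 3141 without the filter and 3377 when scaled to epithelial markers, which moved the median of all genes to -0.61 and the calls from 1204 higher and 825 lower to 618 and 2759. Without the filter they were 1603 and 1538, and with scaling without the 10 genes 1324 and 704. All 10 genes were called lower under each of these. Leaving out each library in turn, 8 to 10 of the 10 genes were called lower, 0 higher, 1636 to 2627 of all genes, 13 to 17 secretory genes and 3 to 8 regulators, against 10, 0, 2029, 17 and 6. The log2 difference of the summed milk level was -4.48 to -3.88 (-4.18 with all). Groups share only replicate numbers: with a replicate block, 544 genes, 3 of the 10 milk protein genes, 11 secretory genes and 0 regulators were called, and same-numbered samples correlated at -0.58, 0.04 and -0.66, so that the numbers do not pair them. With 3 glands of unstated stage, the spread between normal glands was poorly measured, and the lowest counts behind a value were 3 reads for Csn1s2b, 7 for Wap and 11 for Glycam1.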

Other observations

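The listed genes on each side of the casein cluster are described here as well. Of 6 listed genes that flank the casein cluster on chromosome 5, 4 were tested and 0 were called. Of all genes tested, 6.99% were called lower and 10.2% higher, so that 4 genes are too few to tell them from other genes. Ythdc1 changed by 0.09 ± 0.14 on the log2 scale (SE, limma adjusted p = 0.699), Jchain by -0.24 ± 0.94 (limma adjusted p = 0.875), Utp3 by 0.22 ± 0.14 (limma adjusted p = 0.292) and Rufy3 by -0.07 ± 0.31 (limma adjusted p = 0.888). Tmprss11e, a serine protease gene left out by the filter, was at 0 in the 3 glands and at 7.25 ± 5.35 normalized cpm (SD, n = 10) over the tumors, all of which were above 0. Without the filter Tmprss11e was called higher, with a log2 fold change of 2.78 (limma adjusted p = 5.44e-04). Sult1d1, the neighbor of Csn1s1 and also left out by the filter, was at 0.674 to 9.93 in the tumors and 2.40 to 12.6 in the glands.

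Across the 10 tumors, the genes outside the 10 milk protein genes whose log2 level was most like the mean log2 level of the 5 caseins were Pold3, Stimate, Saa2, Prxl2a, Vps37b, Trim7, Folr1 and Rprm, with Pearson's r from 0.934 to 0.973. Pold3, a subunit of DNA polymerase delta, led these with r = 0.973 (Spearman's rho = 0.952), and with r = 0.948 without tumors 6 and 9. Vps37b, which encodes a subunit of the ESCRT-I complex to which TSG101 belongs, had r = 0.938 (rho = 0.915), and r = 0.924 without both. Saa2, a serum amyloid A gene, had r = 0.941 (rho = 0.855), and r = 0.872 without both. Of the 8 genes, 4 were called lower in the tumors, among them Pold3 (-1.52) and Vps37b (-1.30), where 6.99% of all genes tested were. Saa2 (4.99) and Rprm (2.72) were called higher, where 10.2% of all were. Stimate (-0.77, limma adjusted p = 0.0107) and Trim7 (-0.99, limma adjusted p = 0.00127) were lower by less than 2-fold. Among the regulators and secretory genes named in the text, Elf5 had r = 0.92, Lao1 0.86, Stat5a 0.82, Cish 0.72, Fasn 0.58, Ltf 0.24, Cidea 0.03 and Wnt4 -0.34. The 8 genes were picked as the most alike of the tested genes other than the 10 milk protein genes, the points share libraries and mice, and these values are descriptions with no p.

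The other marker lists differed in how many of their genes were called, again in the fit without the filter. Basal epithelial markers summed to 928 to 4304 normalized cpm in the tumors and 617 to 2051 in the glands (4 of 7 higher, 3 lower), macrophage markers to 94.1 to 236 and 116 to 139 (1 of 5 higher), and endothelial markers to 29.2 to 84.4 and 154 to 475 (4 of 4 lower). Skeletal muscle markers summed to 2.12 to 1900 in the tumors, with tumor 4 at 1900 and tumor 10 at 323, and to 3.05 to 20.6 in the glands, and 0 of 5 were called in either direction. Of 5 salivary gland markers only Amy1 was listed, at 1.04 to 6.06 in the tumors and 40.8 to 74.6 in the glands. The part of these cell types in the milk protein results was not tested.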
